A study of Mus musculus with 8 samples.

Results

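Klf6 ChIP-seq peaks were described at immune genes of families that mostly form tandem clusters. These were all genes listed as nearest to a peak whose symbol began with Klr, Clec, H2-, Defa, Defb, Ifna, Ifnb, Ccl, Cxcl, Ccr or Tlr. The 4 peak lists named 50 such genes of 3888 genes in all, each with a peak between -50 kb and +5 kb of its transcription start site (TSS). Together they held 95 of 7775 gene-annotated peaks. The cells were primary C57BL/6 mouse oligodendrocyte progenitors (OLP), taken from cortices of P6 to P7 pups by immunopanning on PDGFRa after microglia had been depleted on BSL1. They were grown with PDGF-AA at 10 ng/ml and bFGF at 20 ng/ml, and were either left untreated or differentiated to immature oligodendrocytes (iOL) by 18 h of 40 ng/ml T3 (triiodothyronine). Chromatin was precipitated with a rabbit polyclonal antibody to Klf6, a zinc-finger transcription factor, in 2 biological replicates per stage, here called A and B. The 4 input samples have no list of their own, and peak lists hold no expression values against which the cell type could be checked.

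Many receptors and effectors of the immune system are encoded by families of similar genes that lie side by side. Klr and many Clec genes encode C-type lectin-like receptors of natural killer and myeloid cells. H2 genes encode the mouse histocompatibility molecules, which present antigen or, for several non-classical members, serve other recognition tasks. Defa and Defb genes encode antimicrobial defensins of epithelia, Ifna genes the type I interferons, Ccl and Cxcl genes chemokines, Ccr genes their receptors, and Tlr genes the Toll-like receptors of microbial products. Oligodendrocytes are not known as the main source of these proteins, and a peak near such a gene gives a position only.

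For every peak the lists hold a count of sequence tags, a MACS score (minus 10 times log10 of its p-value), a fold enrichment over local background and a percentage false discovery rate (FDR). OLP A had 12451 peaks, OLP B 7827, iOL A 10225 and iOL B 5777, with 105081 to 152149 tags in peaks per sample. The lists began at 7 tags per peak in the A samples, at 9 in OLP B and at 10 in iOL B. All 95 peaks at the 50 genes had an FDR under 5%, with 4.49% as the largest value. They were 72 to 222 bases long and held 7 to 29 tags, which leaves a large counting error on the height of each.

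The loci with a peak in every sample are shown first. Peaks at most 500 bp apart were joined into 61 loci, of which 2 had a peak in all 4 samples, against 5.22% of all gene-annotated loci. Both lay on chromosome 8, upstream of a defensin gene. The sequence near Defb39 (build mm9) spans its overlapping peaks, with the bases inside a peak of every sample in capitals.
Defb39, chr8:19086563-19086707, plus strand: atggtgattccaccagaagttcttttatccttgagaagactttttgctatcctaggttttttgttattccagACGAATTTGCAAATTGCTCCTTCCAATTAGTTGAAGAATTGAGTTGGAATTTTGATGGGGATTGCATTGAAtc
The part held by all 4 samples was 71 bases long. The sequence was not unique in the genome. In each of its 4 overlapping peaks every stretch of 32 bases occurred more than once, with a median of 12 copies in the shortest of them and 329 in the longest.

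The beta-defensin gene Defb39 had 8 tags at this locus in OLP A (19.45-fold enrichment), 10 in OLP B (8.77-fold), 11 in iOL A (24.81-fold) and 24 in iOL B (15.42-fold). These overlapping peaks lay close to -21852 bp of the TSS in each sample. The joined locus also held a further peak in OLP B (10 tags, 10.14-fold, -22319 bp) and in iOL A (8 tags, 19.85-fold, -22315 bp). Tags were highest in iOL B and fold enrichment was highest in iOL A, so the order of the samples depended on the measure. The alpha-defensin gene Defa20 had 10 tags in OLP A (17.19-fold), 13 in OLP B (13.52-fold), 11 in iOL A (24.81-fold) and 29 in iOL B (27.48-fold), close to -21706 bp. Its locus held a further OLP A peak (7 tags, 12.15-fold, -22031 bp). The listed fold enrichment of the iOL samples was above that of the OLP samples at Defa20, and the stages overlapped at Defb39, but heights are not normalized between the lists and no difference between stages is read from them. The iOL B peak near Defa20 had the highest score of the 95 peaks (188.73).

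**Figure D1:**
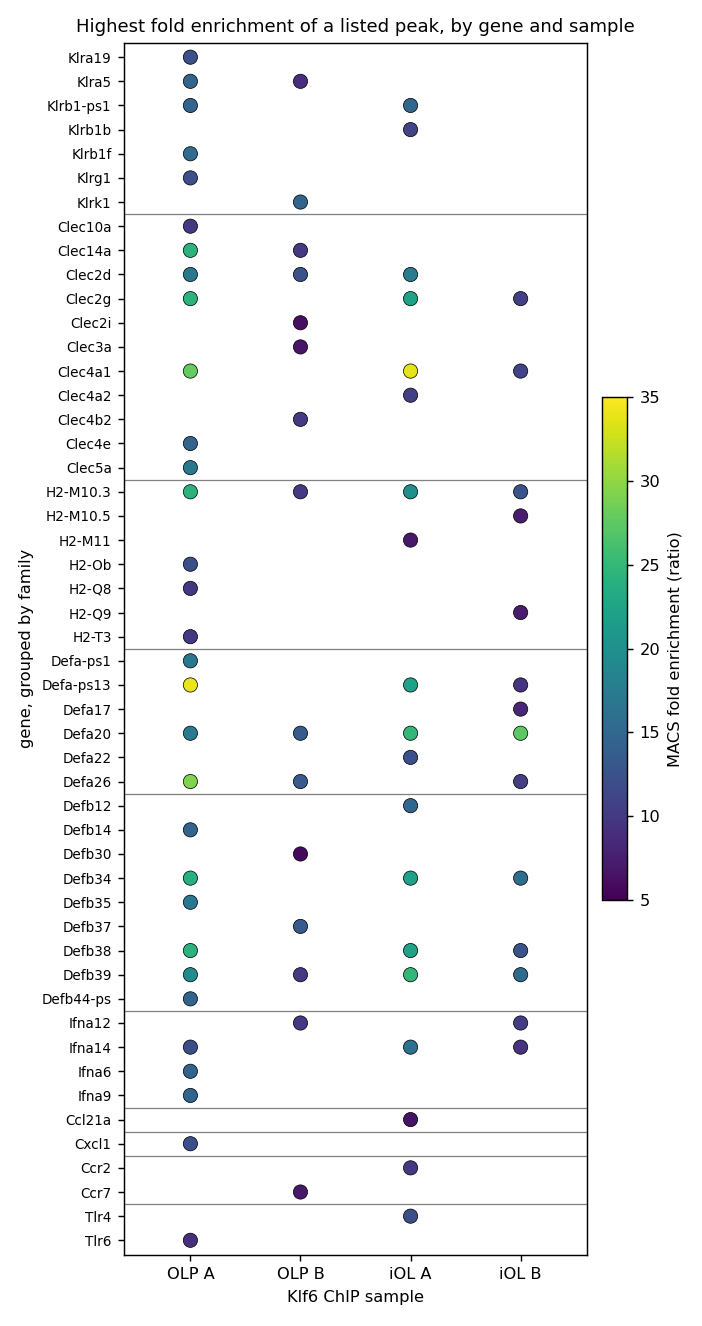
Each point marks a gene with a listed peak in that sample, coloured by the highest MACS fold enrichment (a ratio) of its peaks there, with genes grouped by family along the vertical axis. Of the 50 genes, 35 have a point in 1 sample, and Defa20, Defb39 and H2-M10.3 are those with a point in all 4.

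Most of the genes were listed once. A peak was present in 1 sample for 35 genes, in 2 samples for 4, in 3 for 8 and in all 4 for 3. Of the 61 loci, 43 (70.5%) had a peak in 1 sample, 7 (11.5%) in 2, 9 (14.8%) in 3 and 2 (3.28%) in all 4. Over all 5417 gene-annotated loci, the same shares were 76.6, 11.9, 6.22 and 5.22%. OLP A alone accounted for 22 of the loci, OLP B alone for 10, iOL A alone for 8 and iOL B alone for 3. These were 36.1, 16.4, 13.1 and 4.92% of the member loci, against 30.2, 16.8, 22.2 and 7.46% of all gene-annotated loci, so OLP B alone was near the background and iOL A alone below it. The most frequent shared pattern was OLP A with both iOL samples, at 7 loci (11.5%, against 2.66% of all gene-annotated loci), and with OLP B left out 9 loci had a peak in each of the other 3 samples.

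Defensin genes had 38 of the peaks. The 6 Defa genes had 19 peaks, of which 9 were in OLP A, 2 in OLP B, 4 in iOL A and 4 in iOL B. The 9 Defb genes also had 19, with 6, 5, 5 and 3 in the same order. Besides Defa20, the pseudogene Defa-ps13 had 14 tags and the largest fold enrichment of all members in OLP A (34.03-fold), 10 tags in iOL A (22.33-fold) and 10 in iOL B (9.51-fold). Its summits lay within an intron of the pseudogene, at 2295 to 2304 bp downstream of the TSS. Defa26 was listed in OLP A (12 tags, 29.17-fold), OLP B (12 tags, 13.52-fold) and iOL B (10 tags, 10.57-fold), at -3278 to -3282 bp. Defb38 and Defb34 were each listed in OLP A, iOL A and iOL B. At Defb38 the fold enrichment was 24.31 in OLP A, 22.33 in iOL A and 12.68 in iOL B, and at Defb34 it was 24.09, 22.33 and 15.47. In the lists, the fold enrichment of OLP A was the highest and that of iOL B the lowest at each of these 4 genes. By tags the order differed, with the most in iOL B at Defb38 (13) and Defb34 (17). Over all gene-annotated peaks the median fold enrichment was 14.58 in OLP A, 9.01 in OLP B, 14.89 in iOL A and 10.57 in iOL B. The remaining defensin genes were listed in 1 sample each, at 5.75-fold (Defb30, OLP B) to 17.02-fold (Defb35 and Defa-ps1, OLP A).

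Among the lectin genes, 11 Clec genes had 21 peaks and 7 Klr genes had 9. Clec4a1, a myeloid lectin receptor, had the highest score of the family. It held 22 tags in OLP A (27.75-fold), 18 in iOL A (33.82-fold) and 17 in iOL B (10.92-fold), at -8932 to -8936 bp, and had no listed peak in OLP B. Clec14a, known from endothelial cells, was the only locus listed in both OLP samples and in neither iOL sample, with 10 tags in OLP A (24.31-fold) and 10 in OLP B (10.14-fold) at about -47604 bp. Such a pattern was seen at 1.64% of the member loci and at 1.90% of all gene-annotated loci. The converse, both iOL samples and neither OLP sample, was seen at 0 of 61 loci and at 1.53% of all. Clec2d, which encodes a ligand of an inhibitory Klrb1 receptor, was listed in OLP A (7 tags, 17.02-fold), OLP B (15 tags, 12.39-fold) and iOL A (9 tags, 17.37-fold). Clec2g had 6 peaks at 3 loci, all inside an annotated Clec2g intron, and 1 of these loci was listed in OLP A, iOL A and iOL B.

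Klrk1 encodes NKG2D, an activating receptor of natural killer cells. Its single peak held 13 tags in OLP B (14.64-fold, -7970 bp) and had the highest score of the Klr genes (90.94). Klra5, of the Ly49 receptors, was listed in both OLP samples, but at separate loci, with 8 tags in OLP A (14.58-fold) and 11 in OLP B (9.01-fold). The pseudogene Klrb1-ps1 was listed in OLP A (9 tags, 14.58-fold) and iOL A (10 tags, 14.89-fold). No Klr gene was listed in iOL B, where 14 peaks at member genes were found in all.

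The 7 H2 genes had 13 peaks, 7 of them at H2-M10.3, a non-classical class I gene of the M region. Its 7 peaks formed 3 loci, none of which had a peak in all 4 samples, although the gene was named in each. At about -10714 bp it held 10 tags in OLP A (24.31-fold) and 9 in iOL A (19.85-fold). At about -31617 bp there were 11 tags in OLP A (24.31-fold), 7 in iOL A (14.89-fold) and 14 in iOL B (12.68-fold). At about -33002 bp there were 10 tags in OLP B (10.14-fold) and 7 in iOL A (17.37-fold). The other 6 H2 genes were listed in 1 sample each. H2-Ob, which encodes a chain of the class II accessory protein H2-O, had 7 tags in OLP A (12.15-fold). The class II gene H2-Ab1 was named at that peak as a farther gene and at no peak as the nearest.

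The 4 Ifna genes had 8 peaks. Ifna14 was listed in OLP A (8 tags, 12-fold), iOL A (12 tags, 16.15-fold) and iOL B (12 tags, 9.51-fold), at about -5545 bp. Ifna12 had 10 tags in OLP B (10.14-fold) and 10 in iOL B (10.36-fold) at 1 locus, and a further 10 tags in OLP B at another. Ifna6 had the only peak of the 95 within 2 kb of a TSS, with 8 tags in OLP A (14.58-fold) at -1202 bp. Ifnb1, the single gene of beta interferon, was named only as a farther gene.

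Chemokines, their receptors and Toll-like receptors had 6 genes with 1 peak each. Cxcl1, a neutrophil chemokine, had 10 tags in OLP A (12.15-fold, -9110 bp). Ccl21a, which guides cells that carry Ccr7, had 10 tags in iOL A (6.41-fold, -16086 bp). Ccr2, the receptor of monocyte chemokines, had 10 tags in iOL A (9.69-fold, -19751 bp), and Ccr7 had 13 in OLP B (6.97-fold, -38583 bp). Tlr4, the endotoxin receptor, had 7 tags in iOL A (12.24-fold, -48162 bp) and Tlr6 had 9 in OLP A (9.18-fold, -43054 bp). None of these 6 was seen in a second sample.

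Set against the annotation, 44 of 224 protein-coding genes with these prefixes (19.6%) were nearest to a peak in at least 1 sample, against 14.8% of 22238 protein-coding genes. The share was 34.4% for Clec (11 of 32), 33.3% for Defa (4 of 12), 26.7% for Ifna and Ifnb (4 of 15), 21.4% for Klr (6 of 28) and 19.5% for Defb (8 of 41). It was 16.7% for Tlr (2 of 12), 14.3% for H2 (5 of 35) and for Ccr (2 of 14), 8.33% for Cxcl (1 of 12) and 4.35% for Ccl (1 of 23). A further 33 genes with these prefixes were named only as a farther gene, and 41 of the 95 peaks named 2 or more members, at most 4. In a tandem cluster the nearest gene is therefore 1 of several candidates.

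Few peaks lay near a TSS, as in the lists at large. Within 2 kb there was 1 of 39 member peaks in OLP A and 0 in the other samples, against 4.41, 6.92, 3.78 and 5.51% of gene-annotated peaks in OLP A, OLP B, iOL A and iOL B. Of the 95, 90 were upstream and 5 downstream, and 36 fell within -15 kb to +5 kb. The lists name genes from -50 kb to +5 kb, so an upstream majority is built into them. The upstream share of all gene-annotated peaks was not taken. By sample the -15 kb to +5 kb window held 43.6% of member peaks in OLP A, 22.2% in OLP B, 33.3% in iOL A and 50% in iOL B, against 38.7, 39.6, 38.2 and 38.2% of gene-annotated peaks. By GENCODE, 78 summits were outside annotated transcripts, 16 in an intron and 1 in an exon. This split was not taken over all gene-annotated peaks either, and it depends on the same limits of distance. The exonic summit was listed for H2-Q9 in iOL B and lay in H2-Q7, a near-identical neighbour, so its gene is uncertain.

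The sequence under most of the peaks is present elsewhere in the genome. A peak was called repeated when over 50% of its 32-base stretches occurred more than once in the mm9 genome, on either strand. This held for 85 of the 95 peaks, and in 66 every stretch was repeated. In OLP A 33 of 39 member peaks (84.6%) were repeated, against 86% of gene-annotated peaks. In OLP B it was 16 of 18 (88.9%) against 68.9%, in iOL A 23 of 24 (95.8%) against 87.1%, and in iOL B 13 of 14 (92.9%) against 83%. Repeated sequence was thus about as common in the member peaks of OLP A as in its gene-annotated peaks and was a larger share in the other 3 samples. How the aligner placed reads with several matches is not given in the sources used here, so the assignment of such a peak to its locus, and to its gene, is uncertain. Counts for repeated and other peaks are set side by side below, but the part of repeated sequence in the results was not tested.

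**Figure D2:**
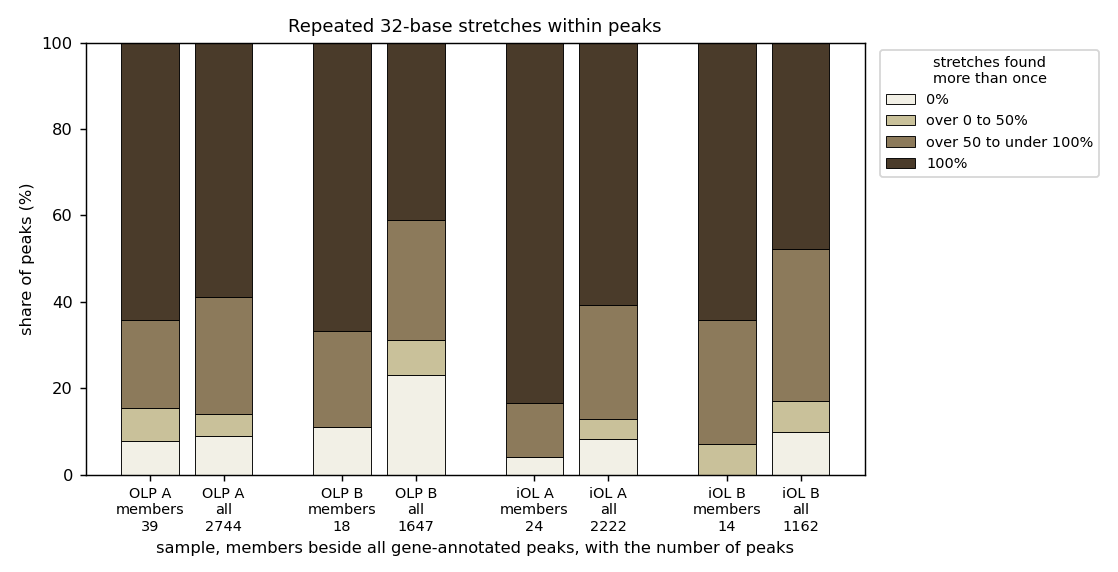
Bars give the share of peaks (%) by how many of their 32-base stretches occur more than once in the genome, for member peaks and for all gene-annotated peaks of each sample, with the number of peaks under each bar. In each sample the 100% class is larger among members, at 64.1 to 83.3%, than among all gene-annotated peaks, at 41.0 to 60.8%.

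The same sequence recurred between families. By BLAST (E value at most 1e-10), 31 of the 61 loci matched another member locus. They formed 31 matched pairs, of which 27 joined loci on different chromosomes, and 9 groups. BLAST matches were not counted over all gene-annotated loci, so no background share stands beside these counts. Examples are printed to show what was shared, each on the strand that aligns with its partner and with the longest identical stretch in capitals.
Clec4a1 OLP A, chr6:122862836-122863022, plus strand: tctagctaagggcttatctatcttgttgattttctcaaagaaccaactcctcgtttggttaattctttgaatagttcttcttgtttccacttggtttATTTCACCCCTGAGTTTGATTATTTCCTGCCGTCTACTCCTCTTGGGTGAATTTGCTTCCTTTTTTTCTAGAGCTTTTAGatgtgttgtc
Defb38 iOL A, chr8:19041784-19041991, plus strand: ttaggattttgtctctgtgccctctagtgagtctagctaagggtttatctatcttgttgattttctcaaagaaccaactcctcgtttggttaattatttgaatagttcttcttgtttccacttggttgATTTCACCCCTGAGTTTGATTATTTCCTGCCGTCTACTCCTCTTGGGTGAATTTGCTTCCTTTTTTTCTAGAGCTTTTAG
Defb39 OLP B, chr8:19087060-19087166, plus strand: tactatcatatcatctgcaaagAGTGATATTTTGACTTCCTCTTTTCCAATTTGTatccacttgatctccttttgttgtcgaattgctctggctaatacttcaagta
Ifna12 OLP B, chr4:88263413-88263546, plus strand: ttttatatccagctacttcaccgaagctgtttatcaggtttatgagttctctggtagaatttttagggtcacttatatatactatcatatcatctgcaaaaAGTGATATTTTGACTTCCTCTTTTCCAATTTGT
Tlr4 iOL A, chr4:66440585-66440728, plus strand: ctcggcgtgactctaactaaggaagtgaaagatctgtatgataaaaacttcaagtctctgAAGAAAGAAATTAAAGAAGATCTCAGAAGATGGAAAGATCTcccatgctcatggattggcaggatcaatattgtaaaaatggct
H2-M10.3 iOL A, chr17:36538319-36538408, minus strand: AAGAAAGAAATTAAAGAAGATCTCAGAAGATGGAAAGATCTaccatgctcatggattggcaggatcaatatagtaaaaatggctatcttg
Clec2g OLP A, chr6:128904740-128904917, plus strand: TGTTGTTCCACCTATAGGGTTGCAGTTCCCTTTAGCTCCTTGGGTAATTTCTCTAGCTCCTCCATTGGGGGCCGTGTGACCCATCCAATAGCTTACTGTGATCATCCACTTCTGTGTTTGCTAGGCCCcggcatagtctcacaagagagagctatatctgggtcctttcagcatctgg
Klrb1-ps1 iOL A, chr6:129018739-129018950, minus strand: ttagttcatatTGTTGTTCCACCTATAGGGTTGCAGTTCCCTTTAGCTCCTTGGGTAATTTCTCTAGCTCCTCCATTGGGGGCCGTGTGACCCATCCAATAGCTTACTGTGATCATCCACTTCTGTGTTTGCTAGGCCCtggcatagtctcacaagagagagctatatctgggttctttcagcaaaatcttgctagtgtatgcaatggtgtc
Defb34 OLP A, chr8:19101230-19101390, plus strand: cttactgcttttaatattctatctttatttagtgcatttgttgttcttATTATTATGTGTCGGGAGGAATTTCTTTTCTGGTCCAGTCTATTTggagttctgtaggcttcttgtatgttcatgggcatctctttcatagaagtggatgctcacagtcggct
Klrb1f OLP A, chr6:128976377-128976512, plus strand: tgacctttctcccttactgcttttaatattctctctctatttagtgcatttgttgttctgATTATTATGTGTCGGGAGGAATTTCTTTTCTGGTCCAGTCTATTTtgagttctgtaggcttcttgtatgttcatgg
The Clec4a1 and Defb38 loci, on chromosomes 6 and 8, were 98.3% identical over 177 bases, and their longest identical stretch of 80 bases occurred 4396 times in the genome. Both were listed in OLP A, iOL A and iOL B. The 45 bases common to Defb34 and Klrb1f occurred 9657 times, the 41 bases common to Tlr4 and H2-M10.3 occurred 13352 times, and the 33 bases common to Defb39 and Ifna12 occurred 8900 times. By contrast, the 128 bases common to Clec2g and Klrb1-ps1, both on chromosome 6, occurred 3 times, although their shorter stretches were more frequent.

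The largest group joined 8 loci of 6 families, near Clec4b2, Defb35, Defb39, H2-M10.3, Ifna12, Klra19, Klrk1 and Tlr4. Matches were taken over whole loci, so they can include bases between joined peaks. The Defb39 locus of this group spanned 604 bases. It matched Defb35 over 192 bases and Clec4b2 over 168, more than the length of its longest peak (144 bases). Among the members, it shared a 32-base stretch only with the loci near Clec4b2, Ifna12 and Klrk1. A second group joined 7 loci near Clec14a, Clec2g, Clec4a1, Defb37, Defb38, Ifna12 and Ifna14. The third joined 4 loci near Clec2g, Klrb1-ps1, Defa-ps13 and Defa20. Its Defa20 locus was that at about -14600 bp, listed in OLP A and iOL A. The Defa20 locus with a peak in all 4 samples matched no other member locus. Matches were not limited to these families. A 32-base stretch was shared with at least 1 other gene-annotated locus by 45 of the 61 loci, with a median of 19 other loci over all 61 and at most 149 (H2-M10.3). The same sharing was not counted for all gene-annotated loci, so it is not read as particular to these genes. By sample, 68.9 to 87.1% of all gene-annotated peaks were repeated. The Defb39 locus in all 4 samples shared stretches with 106 other loci and the Defa20 locus with 133.

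**Figure D3:**
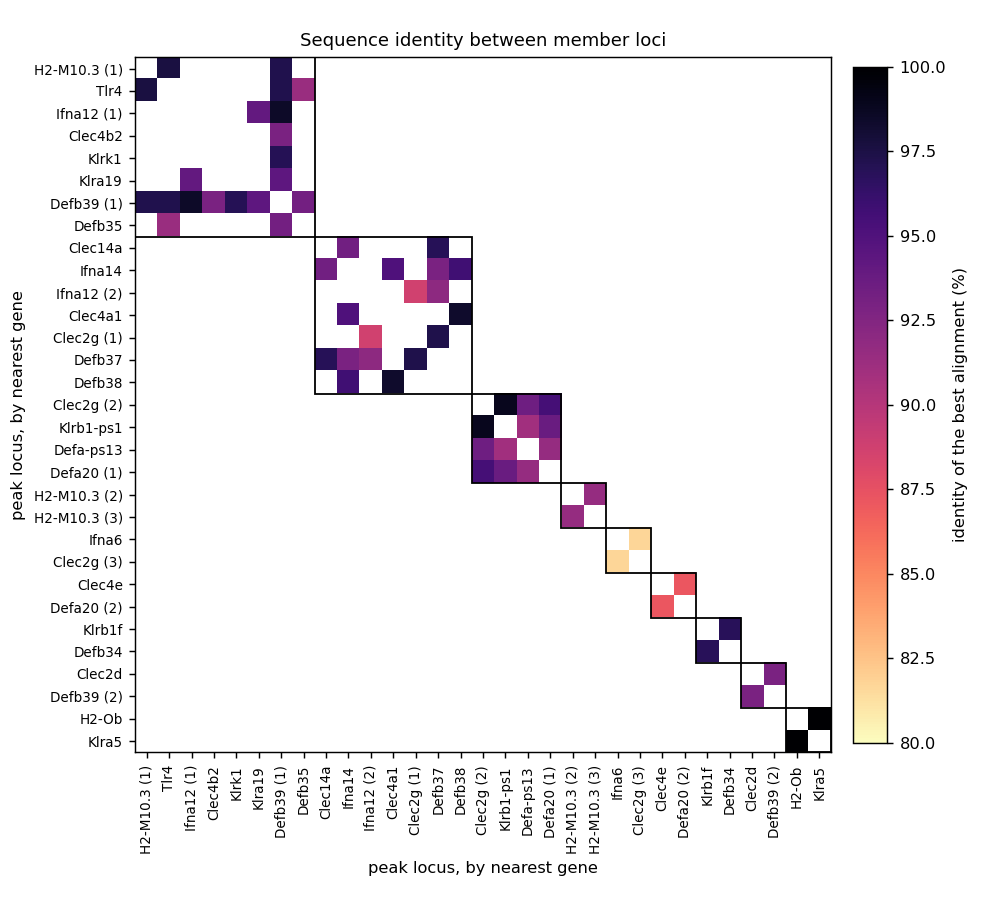
Coloured cells mark pairs of member loci with a BLAST match, by the identity of the best alignment (%), and frames enclose the 9 groups. Loci are named by their nearest gene, with a number where 1 gene has several. The largest frame holds 8 loci of 6 families.

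The 10 peaks that were not repeated lay near Ccr7, Defb30, H2-T3, H2-M10.5, Ifna9, Ifna6, Tlr6, Klrg1, Klrb1b and Clec2g. The Clec2g locus among them was also listed in iOL A, where the peak had 58.0% repeated stretches, and none of the other 9 loci was listed in a second sample. The Ifna6 sequence is printed because it was the peak nearest to a TSS. Capitals mark bases inside a stretch that occurs more than once, and 39.9% of its stretches did.
Ifna6 OLP A, chr4:88472004-88472222, plus strand: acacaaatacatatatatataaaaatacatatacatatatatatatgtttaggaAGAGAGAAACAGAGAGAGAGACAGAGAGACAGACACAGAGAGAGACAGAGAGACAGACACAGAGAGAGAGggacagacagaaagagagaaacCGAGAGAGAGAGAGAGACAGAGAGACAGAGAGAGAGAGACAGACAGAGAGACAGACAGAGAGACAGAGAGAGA
It is made largely of short tandem units.

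Klf6 belongs to a family that binds CACCC-box and GC-box DNA. The letters CCACCC and CCGCCC were searched for on both strands within 100 bases of each summit, and neither contains the other. Of the 95 windows, 4 held one of them, at 2 loci. By sample these were 2 windows in OLP A (5.13%), 1 in OLP B (5.56%), 0 in iOL A and 1 in iOL B (7.14%), against 5.83, 4.98, 5.90 and 8.09% of gene-annotated peaks. The 3 windows with CCACCC were those around the summits of the Defa26 peaks. There the motif lay outside the called peaks, beyond their ends at 22725402 to 22725407. The window with CCGCCC was near the class I gene H2-T3 in OLP A (13 tags, 9.70-fold, -41416 bp), with 2 positions, both inside the peak. Both windows are printed for OLP A, with the motif in capitals on either strand.
Defa26 OLP A, chr8:22725260-22725460, plus strand: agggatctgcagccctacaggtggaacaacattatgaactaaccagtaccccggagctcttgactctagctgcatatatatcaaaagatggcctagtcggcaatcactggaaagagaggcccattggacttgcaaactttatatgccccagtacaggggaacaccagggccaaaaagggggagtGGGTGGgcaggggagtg
H2-T3 OLP A, chr17:36368411-36368611, plus strand: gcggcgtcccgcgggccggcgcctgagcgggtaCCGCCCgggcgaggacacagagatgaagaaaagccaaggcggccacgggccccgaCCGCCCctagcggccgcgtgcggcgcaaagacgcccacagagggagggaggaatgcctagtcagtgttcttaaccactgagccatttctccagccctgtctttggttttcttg
The H2-T3 peak had 73.5% GC, the highest of the members, against a median of 38.1% over the 95 peaks. It was unique in the genome at 32 bases, whereas the Defa26 peaks were fully repeated with a median of 35 copies.

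The replicates of a stage shared a minority of peaks in OLP and up to 64.3% in iOL. Of the 39 member peaks of OLP A, 6 (15.4%, 95% Wilson interval 7.25 to 29.7%) had an OLP B peak within 500 bp, against 20.9% of gene-annotated peaks. Of the 18 of OLP B, 6 (33.3%, 16.3 to 56.3%) were found in OLP A, against 34.1%. Both OLP shares were near the background. Of the 24 of iOL A, 10 (41.7%, 24.5 to 61.2%) were found in iOL B, against 25.6%, and of the 14 of iOL B, 9 (64.3%, 38.8 to 83.7%) were found in iOL A, against 47.8%. Both iOL shares were above the background, which lay within their intervals. Each interval covers counting error only. All member peaks found in the other replicate were repeated, whereas 0 of the 10 peaks that were not repeated were found there. Over all gene-annotated peaks the recovered share was 23.3 to 55.2% for repeated peaks and 4.68 to 11.6% for the rest.

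Between stages, 15 of the 39 OLP A peaks (38.5%) were found in iOL A and 15 of the 24 iOL A peaks (62.5%) in OLP A, against 29.6 and 36.5% of gene-annotated peaks. For the B samples it was 5 of 18 (27.8%) and 4 of 14 (28.6%), against 26.8 and 37.7%. OLP A therefore shared more of its member peaks with iOL A than with its own replicate. The same held for all its gene-annotated peaks (29.6% in iOL A and 20.9% in OLP B), and the iOL A list was longer than that of OLP B.

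The number of member genes was compared between the stages. It was 31 in OLP A, 15 in OLP B, 19 in iOL A and 14 in iOL B, so the stages overlapped. The mean was 23.0 ± 11.3 (SD, n = 2) in OLP and 16.5 ± 3.54 in iOL, and an exact two-sided permutation test gave p = 0.67, where 0.33 is the smallest value that 2 against 2 samples allow. Within the A samples OLP had 12 more genes than iOL and within the B samples 1 more. OLP A, with the most member genes, also had the longest list. As a share of gene-annotated peaks, member peaks made up 1.42% in OLP A (95% Wilson interval 1.04 to 1.94%), 1.09% in OLP B (0.692 to 1.72%), 1.08% in iOL A (0.727 to 1.60%) and 1.20% in iOL B (0.719 to 2.01%). The intervals overlapped, and the means of 1.26 ± 0.232% in OLP and 1.14 ± 0.0882% in iOL (SD, n = 2) gave p = 0.67 by the same exact test. OLP minus iOL was 0.341 points within A and -0.112 points within B. Both directions rested on OLP A, without which OLP minus iOL was -1.5 genes and -0.0496 points.

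In median height, member peaks were compared with the lists. The median fold enrichment was 14.58 in OLP A, 10.14 in OLP B, 15.52 in iOL A and 10.57 in iOL B, against 14.58, 9.01, 14.89 and 10.57 for gene-annotated peaks. Median GC was 40.6, 34.5, 38.4 and 37.8%, against 38.2, 36.5, 38.8 and 39.3%.

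Peak density was then taken over the clusters as annotated, irrespective of the nearest gene. Genes counted in a cluster include pseudogenes, unlike the protein-coding genes in the shares above. The Defa cluster of chromosome 8 (25 genes, many of them pseudogenes, in 695 kb) had 21.6 listed peaks per Mb in OLP A, 10.1 in OLP B, 17.3 in iOL A and 8.63 in iOL B. The whole genome had 4.69, 2.95, 3.85 and 2.07. The larger of 2 Defb clusters of the same chromosome (14 genes in 523 kb) had 11.5, 7.65, 11.5 and 9.56, and the interferon cluster of chromosome 4 (14 genes in 329 kb) had 15.2, 6.09, 9.13 and 9.13. In each of these 3 clusters all 4 samples lay above the genome. The Klr cluster of chromosome 6 (27 genes in 1778 kb) had 5.63, 2.81, 4.50 and 1.13, above the genome in the A samples and below it in the B samples. A Clec cluster (13 genes in 820 kb) lies inside this interval. It held 6 of the 10 peaks in OLP A, 2 of 5 in OLP B, 6 of 8 in iOL A and 1 of 2 in iOL B. The M region of H2 genes on chromosome 17 (20 genes in 1478 kb) had 4.06, 2.71, 3.38 and 4.06, above the whole genome in iOL B only. Chromosome 17 as a whole had 3.65, 2.18, 3.35 and 1.63, almost the same as the M region in iOL A (5 peaks) and lower in the other samples. The Defa, larger Defb, interferon and Klr clusters had the same directions against their own chromosomes as against the genome. The H2 clusters of 14 and 8 genes on chromosome 17 had 0 or 1 peak per sample. The smaller Defb cluster of chromosome 8 (9 genes in 172 kb) had 1 peak in OLP A and 0 in the other samples, and the Defb clusters of chromosomes 2 (11 genes) and 14 (5 genes) had 0 in every sample. Both Ccl clusters of chromosome 11 had 0 peaks in every sample, in 270 and 139 kb. A Ccl cluster of chromosome 4 (8 genes in 1071 kb) had 0, 2, 3 and 0 peaks in OLP A, OLP B, iOL A and iOL B. In the same order, the Cxcl cluster (5 genes in 147 kb) had 2, 1, 0 and 1. The Ccr cluster (6 genes in 475 kb) had 2, 0, 1 and 0, and a Clec cluster of chromosome 6 (9 genes in 368 kb) had 0, 1, 1 and 0. The densities given per Mb rest on 2 to 15 peaks per sample and cluster and were not tested.

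**Figure D4:**
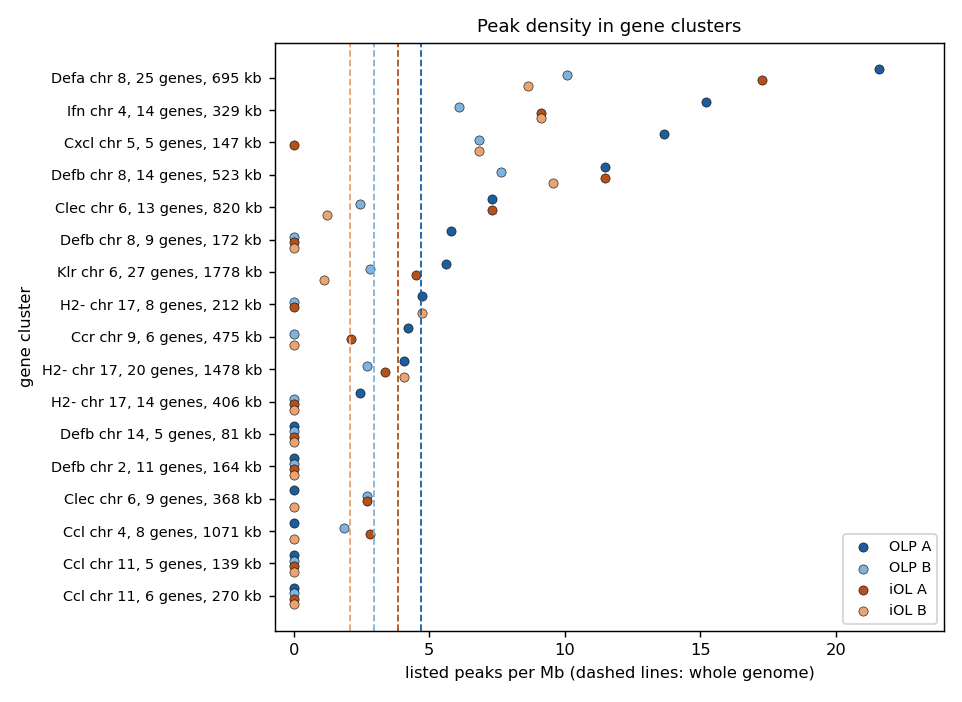
Points give listed peaks per Mb in each annotated cluster, coloured by sample, with dashed lines at the density of the whole genome in that sample. The Defa cluster of chromosome 8 lies to the right of all dashed lines in every sample, whereas both Ccl clusters of chromosome 11 lie at 0.

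Within the Defa cluster, 16 of 40 peaks listed a member as the nearest gene, 22 listed a gene with another symbol and 2 listed none. In the Defb cluster of 14 genes, 19 of 21 listed a member, in the interferon cluster 8 of 13 and in the Klr cluster 18 of 25. The count of 50 genes therefore leaves out peaks that lie inside the clusters.

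**Figure D5:**
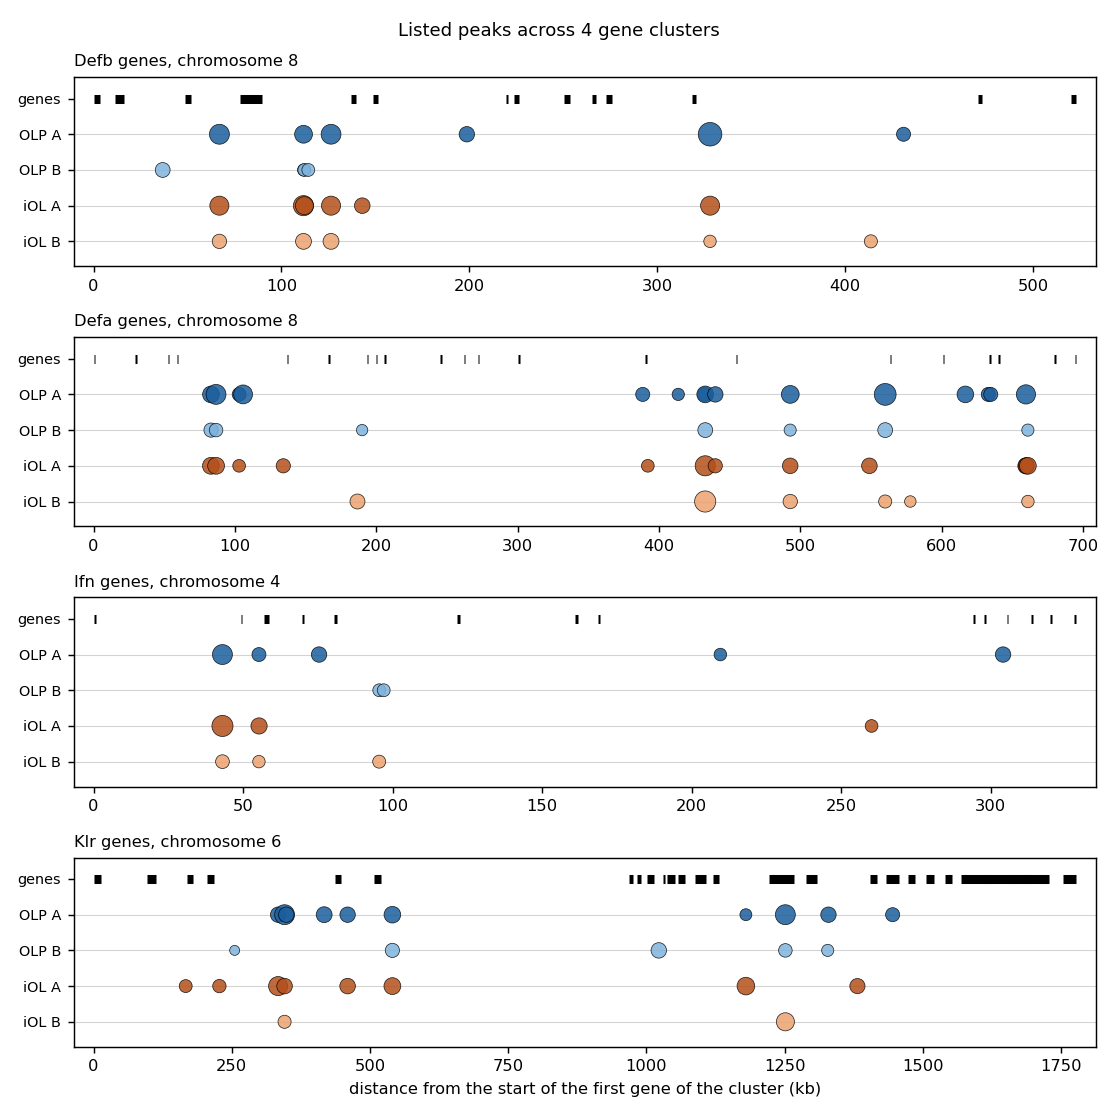
Black bars mark annotated genes of the family and points mark listed peaks of each sample, with area proportional to fold enrichment, by distance from the start of the first gene of the cluster (kb). Columns of points at 1 position are loci listed in several samples, such as those near Defb39 and Defa20.

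Other genes of the same pathways were taken from a list of 60 receptors, adaptors and ligands, of which 55 are annotated under those symbols. A peak listed 13 of them as the nearest gene, 8 in OLP A, 4 in OLP B, 5 in iOL A and 2 in iOL B. Of the 55 annotated genes, all protein-coding, 12 (21.8%) had a peak in at least 1 sample, against 14.8% of protein-coding genes. The chemokine receptor gene Cxcr4 was listed in OLP A (7 tags, 14.58-fold), and the interferon gamma receptor gene Ifngr1 in OLP B (13 tags, 7.88-fold). Of the ligands of NKG2D, Raet1a had 4 peaks in OLP A, iOL A and iOL B, 1 of them with 442 tags, H60b 3 peaks in OLP A, OLP B and iOL A, and H60c 2 peaks in OLP A and OLP B. In 1 peak of each gene, 89.2, 100 and 89.4% of stretches were repeated, and Raet1 genes are near-identical copies, so the gene is uncertain. The Toll-like receptor adaptors Myd88, Ticam1, Ticam2 and Tirap, the interferon receptor genes Ifnar1 and Ifnar2 and the class I light chain B2m were nearest to no listed peak.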

How the data were processed

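Klf6 ChIP-seq was analysed in 4 samples, 2 replicates each of OLP and iOL. Per the labels, bases were called with CASAVA 1.8 and reads aligned to mm9 with Bowtie2, and by the study's methods the authors used MACS to call peaks of each ChIP sample over input and took distances from RefSeq transcripts. The MACS version, the number of reads and the treatment of reads with several matches are not given in the sources used here. The deposited lists give tags per peak as a raw count, and the authors' MACS value (minus 10 times log10 of p) as a score. Fold enrichment is a linear ratio and the FDR a percent, both as deposited. Heights carry no normalization across samples, so tags and fold enrichment are given as listed and no test used them.

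The genes, lists and tests were chosen with earlier results of these data known. Peaks with an FDR under 5% were kept. Peaks at most 500 bp apart were joined. The reference genome (NCBIM37) is mm9, and GENCODE supplied gene positions, which were within 500 bp of the listed distance for 86 of 95 peaks. Genes named by rule were those of loci listed in all 4 samples, in both replicates of 1 stage only, or with a summit within 2 kb of the TSS, and the highest-scoring gene of each family. Other genes were chosen after their values were seen. A gene of the pathway list and a sequence are not reported here. Clusters were runs of at least 5 genes of a prefix, pseudogenes included, at most 500 kb apart. Samples were compared with exact permutation tests, 2 against 2, and shares given with Wilson intervals. Joining and repeat counting were tested on simulated data. Alternatives were limits on FDR, tags (10), score (50), distance and repeats, other gaps, each sample left out and the replicate letter as a block. Software was BLAST 2.17.0, networkx 3.6.1, matplotlib 3.10.9, numba 0.67.0, scipy 1.17.1, pandas 2.3.3, numpy 2.4.6 and Python 3.11.15.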

Additional observations from a re-analysis of the deposited data

How the results depend on the processing

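The difference between the stages (OLP minus iOL) in the number of member genes was 1.5 to 6.5 under the limits on FDR, tags, score, window and repeats, and ran from -1.5 (without OLP A) to 14.5 when each sample was left out. The difference in share turned to -0.0798 points with at least 10 tags and to -0.153 in the -15 kb to +5 kb window, was 0.549 without repeated peaks, and ran from -0.0496 (without OLP A) to 0.279 when each sample was left out. No setting brought a p under the threshold, which 2 samples against 2 cannot reach. With the replicate letter as a replicate block, the paired differences were 6.5 genes (exact p = 0.5) and 0.115 points (exact p = 1). Whether the letters mark a shared culture or day is not stated.

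Of the member peaks of OLP A, 3 were found in OLP B with at least 10 tags, 1 in the window and 0 without repeated peaks. Of those of iOL A, 6 were found in iOL B with at least 10 tags, 6 with a score of at least 50, 3 in the window and 0 without repeated peaks. The loci in all 4 samples fell to 1 with at least 10 tags, 0 in the window and 0 without repeated peaks, and requiring 3 samples in place of 4, each left out in turn, gave 2 to 9, the 9 without OLP B. In these settings fewer peaks entered. The other settings changed no direction, and no count of peaks or loci by over 1.5 times. With 7 to 29 tags per peak, absence of a peak from a list is no evidence that the site was empty.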
